A study of Saccharomyces cerevisiae with 18 samples.

Results

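The genes described here encode the yeast proteasome, together with its transcription factor *RPN4*. They were chosen by symbol in the array's probe annotation, as every gene named RPN with a number, RPT1 to RPT6, PRE1 to PRE10, PUP1 to PUP3 and *SCL1*, which gave 34 of the 5543 genes on the array. Of these, 14 encode the core particle and 18 the regulatory particle, and the other two are *RPN4* and *RPN14*, an assembly chaperone that carries a subunit's name. Expression was compared between colonies of 3 related *Saccharomyces cerevisiae* strains: BR-RF, a feral strain that forms structured colonies and is 1 subclone isolated from starved BR-S cultures, BR-F, the wild strain with structured biofilm colonies, and BR-S, the smooth domesticated derivative of BR-F. All colonies grew on agar with yeast extract and glycerol and were collected whole on day 4 or day 7, so a lower ratio could mean less mRNA per cell or fewer cells that make it, and these cannot be told apart. More biomass was taken per RNA isolation from BR-RF and BR-F colonies than from BR-S colonies. Polyadenylated RNA of a pair of strains was labelled with Cy5 and Cy3 and hybridised together on spotted arrays, 3 arrays for each of 3 couples and 2 days.

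The proteasome degrades proteins that carry ubiquitin chains. Its core particle is a barrel of stacked rings: outer alpha rings that gate the entrance, and inner beta rings in which the subunits Pre3, Pup1 and Pre2 cut the chain. The regulatory particle caps the barrel. Its base holds a ring of ATPases, the Rpt proteins, that unfold the substrate, and its lid holds Rpn11, which removes ubiquitin. In yeast the zinc finger protein Rpn4 activates the genes of both particles and is itself degraded by the proteasome.

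Every value below is a log2 ratio, with BR-RF/BR-F standing for BR-RF over BR-F and likewise for the other couples, so that 1 unit is a doubling and a negative value means less mRNA in the strain named first. Arrays 1 and 2 of a couple and day held the same RNA with the dyes exchanged, and their mean was 1 biological replicate beside array 3, the other. Fitted ratios are given ± SE of the limma fit with n = 2 biological replicates, and a gene was called where the p adjusted by Benjamini-Hochberg over all genes of that couple and day was under 0.05. All 34 genes were measured on all 18 arrays, 33 of them on 36 of 36 spots. Between 8040 and 10291 spots were usable per array, and biological replicates correlated at 0.354 to 0.757 across all genes. Array 1 of day 7 had a wider spread of ratios (median absolute deviation 0.599 to 0.794) than arrays 2 and 3 of that day (0.366 to 0.479). The couples share strains, so the comparisons are not independent of each other.

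In each couple more proteasome genes were called on day 7 than on day 4, and the share called over all genes was also larger on day 7. In BR-RF/BR-F, 7 of 34 genes were called on day 7, 6 higher and 1 lower, where 15.2% of all genes tested were called (7.8% higher, 7.44% lower). On day 4, 1 was called, higher, against 5.89% of all genes (2.82% higher, 3.07% lower). Set against BR-S, BR-RF had 8 calls on day 7, 2 higher and 6 lower, against 15.9% of all genes (7.27% higher, 8.61% lower), and 1 on day 4, higher, against 4.79% of all genes (2.97% higher, 1.82% lower). For BR-F/BR-S, 2 were called on day 7, both lower, against 11.2% of all genes (6.08% higher, 5.1% lower), and 0 on day 4, against 4.69% of all genes (2.97% higher, 1.72% lower). For that day 4 comparison limma gave 1 gene, *PUP2*, at an unadjusted p under 0.05, and the test of the study's methods called 0.

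The 19 calls fell on 13 genes. The 6 genes called higher in BR-RF were *RPN10* and 5 core particle genes, *PRE2*, *PRE3*, *PRE4*, *PRE6* and *PUP1*. The 6 called lower in BR-RF were *RPN4*, *PRE5* of the core particle, and *RPT6*, *RPN5*, *RPN8* and *RPN13* of the regulatory particle. In BR-F/BR-S *RPN12* and *RPN13* were called, both lower. An analysis of variance over 3 arrays, the kind named in the study's methods, kept 13 of the 19 calls with thresholds on fold and unadjusted p, and 0 after Benjamini-Hochberg adjustment. Without array 3, which left 1 biological replicate, day 7 had 2 calls in BR-RF/BR-F, 1 in BR-RF/BR-S and 0 in BR-F/BR-S, and without array 2 there were 13 in BR-RF/BR-S.

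**Figure D1:**
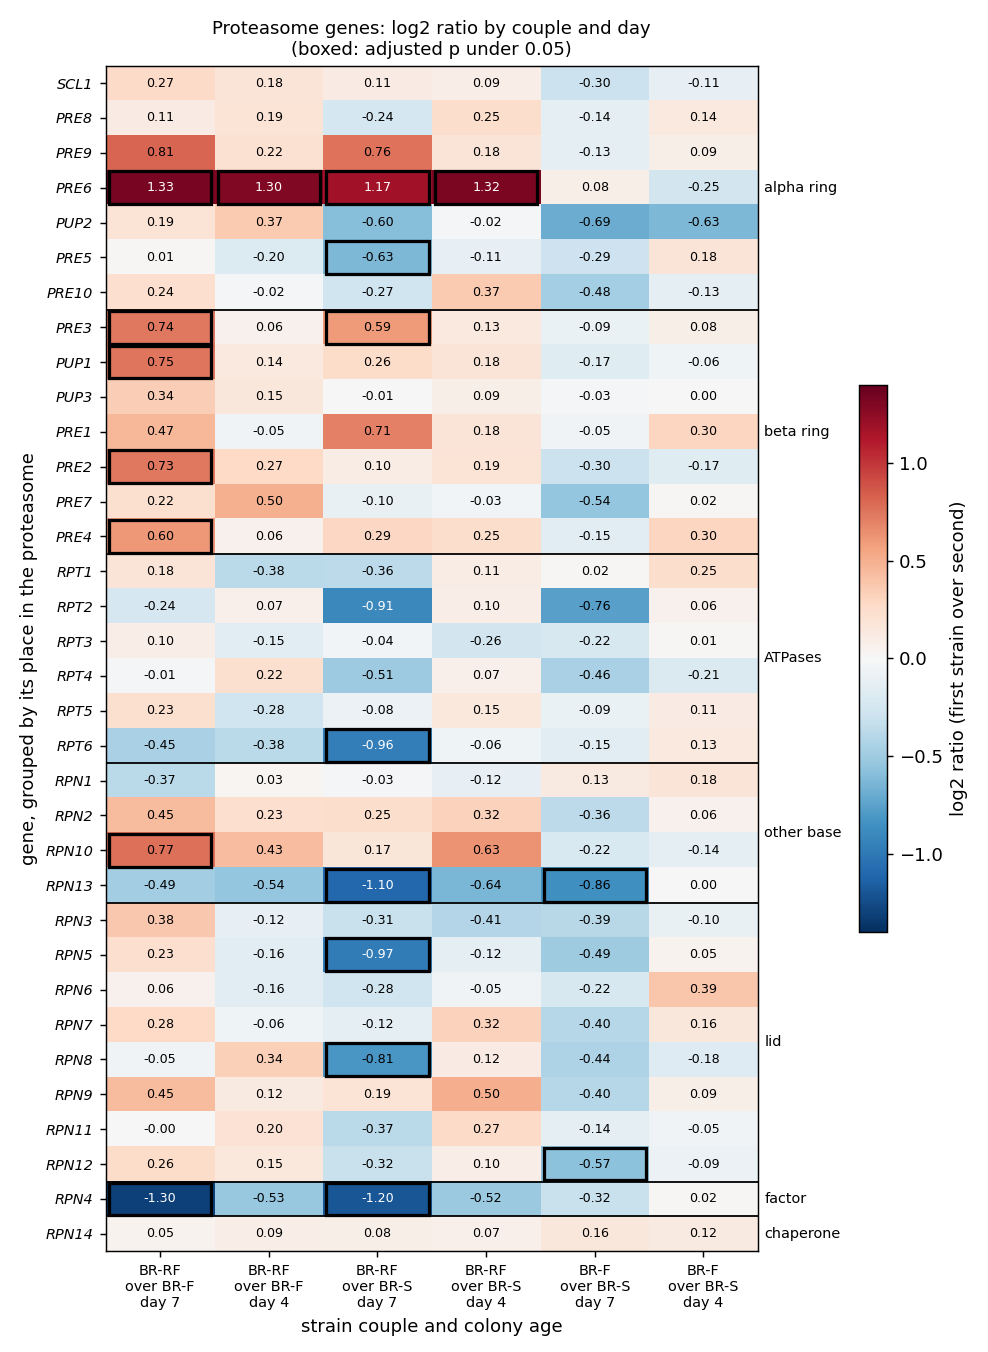
Fitted log2 ratio of the 34 proteasome genes (rows, grouped by their place in the complex) in the 3 strain couples on days 7 and 4 (columns), with boxes around calls at an adjusted p under 0.05. *PRE6* was called in all 4 columns that hold BR-RF, *RPN4* in both day 7 columns that hold BR-RF, and the beta ring held 4 boxes in BR-RF/BR-F on day 7.

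*RPN4* was the member with the lowest ratio in both couples with BR-RF on day 7. In BR-RF/BR-F on day 7 its ratios were -1.87, -1.09 and -1.12 on arrays 1 to 3. All 3 arrays lay well below 0, and the fitted ratio was -1.30 ± 0.20 (adjusted p = 0.00209), which is 2.47 times less *RPN4* mRNA in BR-RF. In BR-RF/BR-S on day 7 the arrays gave -1.80, -1.07 and -0.96, and the fitted ratio was -1.20 ± 0.20 (adjusted p = 0.00397). Array 1 was the lowest in both couples, and both calls held without any single array. The 20 genes that flank *RPN4* on chromosome IV had medians of -0.23 in BR-RF/BR-F and -0.30 in BR-RF/BR-S, from which *RPN4* differed by -1.08 and -0.90.

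On day 4 *RPN4* was also below 0 in both couples with BR-RF but was not called. Its ratios were -0.47, -0.02 and -0.81 in BR-RF/BR-F, with a fitted ratio of -0.53 ± 0.20 (adjusted p = 0.189). They were -0.20, -1.12 and -0.39 in BR-RF/BR-S, with -0.52 ± 0.20 (adjusted p = 0.212). Array 2 stood apart in each couple, near 0 against BR-F and far below 0 against BR-S. Between BR-F and BR-S the ratios of *RPN4* were -0.06, -0.01 and -0.59 on day 7, where the fitted ratio was -0.32 ± 0.20 (adjusted p = 0.356), and 0.44, -0.16 and -0.09 on day 4, scattered about 0. The direct ratio of BR-RF/BR-F on day 7, -1.30, compares with -0.88 when it was computed by way of BR-S from the other couples, and on day 4 the values were -0.53 and -0.55.

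In the alpha ring, which gates the core particle, *PRE6* stood apart from the other 6 genes. In BR-RF/BR-F it measured 1.53, 1.28 and 1.26 on day 7 and 1.14, 0.92 and 1.56 on day 4. Against BR-S it measured 1.64, 0.85 and 1.10 in BR-RF on day 7 and 1.42, 1.58 and 1.14 on day 4. In BR-F/BR-S it measured 0.11, -0.01 and 0.12 on day 7 and 0.05, 0.41 and -0.74 on day 4. No array with BR-RF overlapped an array without it. The fitted ratios of BR-RF against BR-F were 1.33 ± 0.22 on day 7 (adjusted p = 0.00257) and 1.30 ± 0.22 on day 4 (adjusted p = 0.00843). Against BR-S they were 1.17 ± 0.22 on day 7 (adjusted p = 0.00626) and 1.32 ± 0.22 on day 4 (adjusted p = 0.00782). Without array 3, which left 1 biological replicate, the adjusted p of *PRE6* was 0.151 in BR-RF/BR-F on day 4 and 0.0852 in BR-RF/BR-S on day 7.

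*PRE6* lies on the left arm of chromosome XV, where its neighbours were higher in BR-RF as well. The genes around it, 10 measured on each side at most, had medians of 0.48 on day 7 and 0.48 on day 4 in BR-RF/BR-F, and of 0.72 and 0.81 in BR-RF/BR-S. The same neighbours were at -0.06 on day 7 and -0.01 on day 4 in BR-F/BR-S. *PRE6* exceeded its neighbours by 0.85 on day 7 and 0.81 on day 4 against BR-F, and by 0.46 and 0.51 against BR-S. The paper also reported raised expression on this arm in BR-RF. By qPCR of DNA it found higher relative copy numbers for left-arm than right-arm genes in BR-RF against BR-S, which it reads as partial duplication. How far the region carries the ratio of *PRE6* was not tested here. *RPN2* on the left arm of chromosome IX and *RPN13* on the right arm of chromosome XII also had neighbours that were shifted in BR-RF. Without these 3 genes each couple with BR-RF had 0 calls on day 4 instead of 1.

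The remaining alpha ring genes were less uniform. *PRE9*, the alpha subunit yeast can live without, measured 0.94, 1.17 and 0.58 in BR-RF/BR-F and 0.50, 0.26 and 1.15 in BR-RF/BR-S on day 7. All 6 arrays were above 0, but the fitted ratios of 0.81 ± 0.28 and 0.76 ± 0.28 were not called (adjusted p = 0.0765 and 0.0891). *PRE5* fell in BR-RF/BR-S on day 7, with -0.58, -0.49 and -0.73 on the arrays and a fitted ratio of -0.63 ± 0.16 (adjusted p = 0.0222, and 0.260 without array 3). Its neighbours on chromosome XIII had a median of -0.36 there, and against BR-F *PRE5* measured 0.01 ± 0.16. *PUP2* measured -0.60 ± 0.22 in BR-RF/BR-S on day 7 (adjusted p = 0.0917) and -0.02 ± 0.22 on day 4. In BR-F/BR-S it measured -0.69 ± 0.22 on day 7 (adjusted p = 0.0716) and -0.63 ± 0.22 on day 4 (adjusted p = 0.144), without a call. *SCL1*, *PRE8* and *PRE10* had no call, and their ratios lay between -0.48 and 0.37.

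The beta ring held 4 of the 5 core particle genes that rose in BR-RF/BR-F on day 7. *PRE2*, the subunit with the chymotrypsin-like site, measured 0.69, 0.70 and 0.77 (0.73 ± 0.15, adjusted p = 0.00784). *PUP1*, with the trypsin-like site, measured 0.73, 0.68 and 0.80 (0.75 ± 0.15, adjusted p = 0.00647). The arrays of these genes spanned less than their own SE, and every array was far above 0. *PRE3*, with the caspase-like site, measured 0.20, 0.53 and 1.12 (0.74 ± 0.18, adjusted p = 0.0182), and *PRE4*, a subunit without a cutting site, 0.38, 0.36 and 0.84 (0.60 ± 0.15, adjusted p = 0.0210). In both of these array 3 was the highest. The genes of the 3 cutting subunits were thus all among the calls, at folds of 1.66 for *PRE2*, 1.69 for *PUP1* and 1.67 for *PRE3*. Their neighbours on chromosomes XVI, XV and X had medians of 0.02, 0.12 and 0.07.

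Array 3 mattered for these calls. Without it, which left 1 biological replicate, adjusted p became 0.0807 for *PRE2*, 0.0760 for *PUP1*, 0.287 for *PRE3* and 0.263 for *PRE4*, with ratios of 0.69, 0.70, 0.36 and 0.37. Without array 2, *PRE3* had an adjusted p of 0.0592, and with median centring in place of loess *PRE4* had 0.05004. *PRE1*, *PUP3* and *PRE7*, which line the ring without cutting, measured 0.47 ± 0.23, 0.34 ± 0.18 and 0.22 ± 0.17 and were not called. On day 4 the same couple gave beta ring ratios between -0.05 and 0.50, with 0 calls and, at an unadjusted p under 0.05, 1 gene, *PRE7*.

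Against BR-S 1 of the 7 beta ring genes was called on day 7. *PRE3* rose, with 0.55, 0.80 and 0.51 on the arrays and a fitted ratio of 0.59 ± 0.18 (adjusted p = 0.0465), a call that was lost without array 3 (adjusted p = 0.223). *PRE1* measured 1.26, 0.03 and 0.77 (0.71 ± 0.23, adjusted p = 0.0625), a wide scatter in which array 2 was at 0. *PRE2* and *PUP1*, which rose against BR-F, measured 0.10 ± 0.15 and 0.26 ± 0.15. Between BR-F and BR-S on day 7 all 7 beta ring genes were below 0, at -0.03 to -0.54, with 0 calls by limma and 1 gene, *PRE7*, at an unadjusted p under 0.05 (-0.54 ± 0.17, adjusted p = 0.0654). *PRE2* there measured -0.34, -0.23 and -0.32 (-0.30 ± 0.15, adjusted p = 0.230), the same sign on each array.

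**Figure D2:**
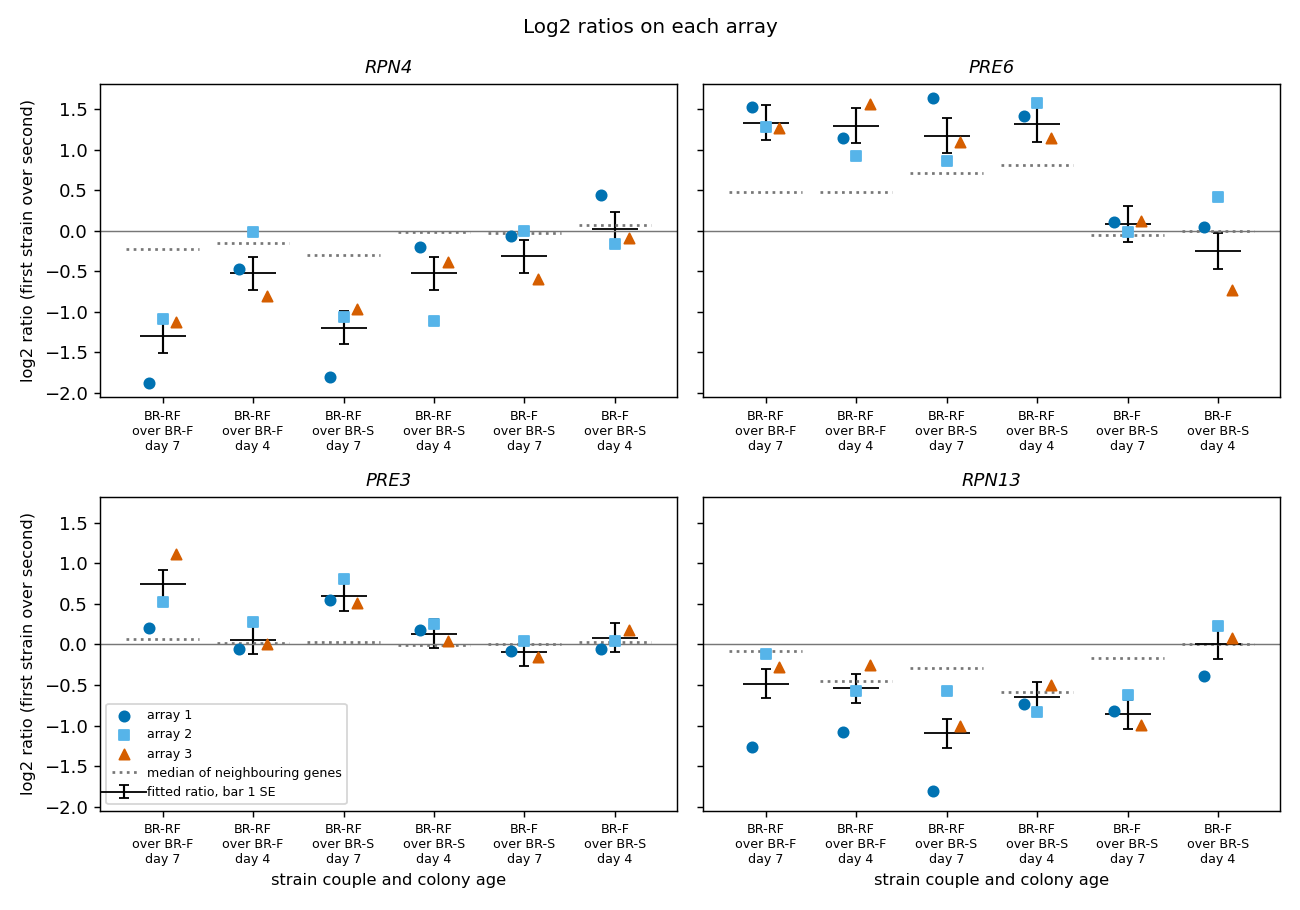
Log2 ratios of *RPN4*, *PRE6*, *PRE3* and *RPN13* on arrays 1, 2 and 3 of each couple and day, with the fitted ratio (bar 1 SE, n = 2 biological replicates) and, dotted, the median ratio of the genes next to each on its chromosome. *PRE6* lay above its neighbours on all 12 arrays with BR-RF and near 0 or scattered about it in BR-F/BR-S, and *RPN4* was lowest on day 7 in both couples with BR-RF.

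Set side by side, the core particle had a higher median ratio than the regulatory particle in every couple on day 7. In BR-RF/BR-F the median ratio on day 7 was 0.40 over the 14 core particle genes and 0.14 over the 18 regulatory particle genes, against -0.01 over all genes. All 14 core particle genes were above 0, where 48.4% of all genes were. Of these, 8 were above 0 on all 3 arrays (57.1%, against 23.2% of all genes). Of the 18 regulatory particle genes 11 were above 0, with 3 on all 3 arrays (16.7%). Against BR-S the medians in BR-RF were 0.11 for the core particle and -0.31 for the regulatory particle. There 11 of 18 regulatory particle genes were below 0 on all 3 arrays (61.1%, against 27.1% of all genes), and 4 of 14 core particle genes were (28.6%). In BR-F/BR-S both were below 0, at -0.16 and -0.37. Within the core particle the beta ring median was above the alpha ring median in each couple. On day 7 they were 0.60 and 0.24 in BR-RF/BR-F, 0.26 and -0.24 in BR-RF/BR-S, and -0.15 and -0.29 in BR-F/BR-S. The alpha ring median lay nearer to the regulatory particle median than to the beta ring median in each couple. Genes of one complex share arrays and normalization and are not replicates, so these medians are descriptions without a test.

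The gap between the particles, core minus regulatory, held its sign in both biological replicates on day 7. It was 0.42 in BR-RF/BR-S, with 0.51 and 0.25 in biological replicates 1 and 2 and 0.62, 0.43 and 0.25 on the arrays. Against BR-F it was 0.26 in BR-RF, with 0.39 and 0.11 in the replicates and 0.45, 0.30 and 0.11 on the arrays. In BR-F/BR-S it was 0.21, with 0.16 and 0.13 in the replicates, but array 2 gave -0.04 beside 0.41 and 0.13 on arrays 1 and 3. In every couple array 1, the array of the widest spread, gave the largest gap. On day 4 the gap differed in sign between replicates, at -0.01 and 0.34 in BR-RF/BR-F and -0.11 and 0.26 in BR-RF/BR-S, and in BR-F/BR-S it was -0.14 and -0.00.

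**Figure D3:**
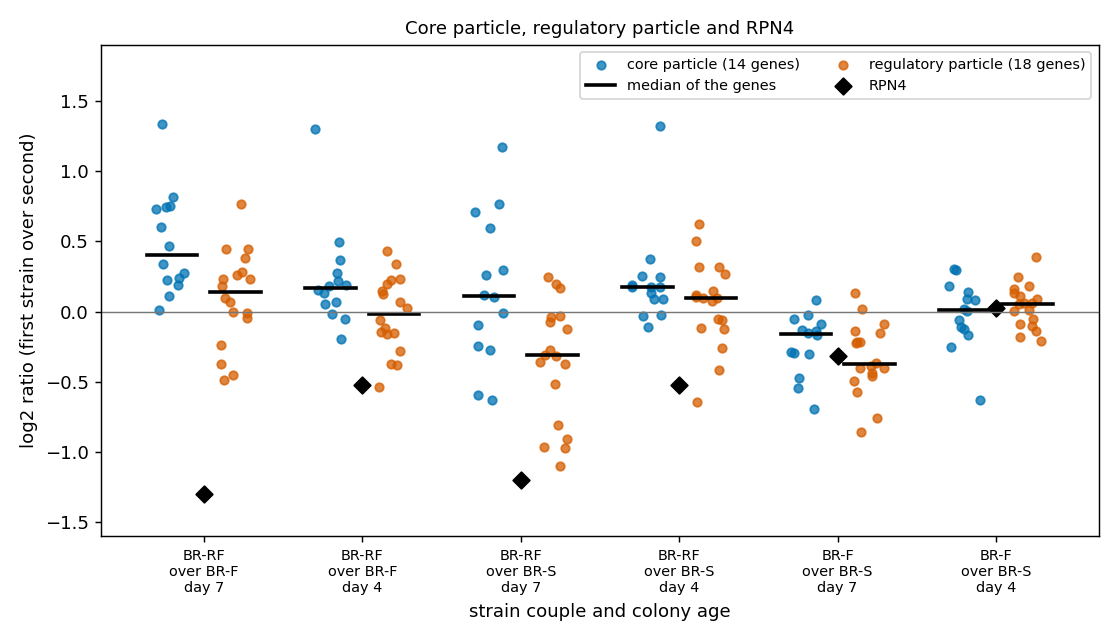
Fitted log2 ratio of each core particle gene (14, blue) and regulatory particle gene (18, orange) by couple and day, with the median of each (black bar) and *RPN4* (diamond). On day 7 the core particle median was above the regulatory particle median in all 3 couples, with 0.40 and 0.14 in BR-RF/BR-F, and *RPN4* lay below every subunit gene in both couples with BR-RF.

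The ATPase genes of the base had no call in 5 of the 6 comparisons. In BR-RF/BR-S on day 7 all 6 were below 0, with a median of -0.44. *RPT6* fell, with -1.04, -0.47 and -1.17 on the arrays and a fitted ratio of -0.96 ± 0.25 (adjusted p = 0.0251). Every array was below 0, and the call was lost without array 1 (adjusted p = 0.0745) or array 3 (adjusted p = 0.310). *RPT2* was nearly as low, at -1.61, -0.57 and -0.72, but its SE was larger (-0.91 ± 0.32, adjusted p = 0.0817), and *RPT4* measured -0.51 ± 0.16 (adjusted p = 0.0522). In BR-F/BR-S on day 7 *RPT2* measured -0.96, -0.55 and -0.76 (-0.76 ± 0.32, adjusted p = 0.157), below 0 on each array. *RPT1*, *RPT3* and *RPT5* lay between -0.38 and 0.25 throughout.

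The other base genes went separate ways. *RPN10* and *RPN13* both encode ubiquitin receptors of the base. *RPN10* rose in BR-RF/BR-F on day 7, with 0.22, 0.65 and 1.10 on the arrays (0.77 ± 0.21, adjusted p = 0.0322), all above 0 and spread widely. The call was lost without array 2 (adjusted p = 0.0925) or array 3 (adjusted p = 0.346), and its neighbours on chromosome VIII had a median of 0.40. On day 4 *RPN10* measured 0.43 ± 0.21 against BR-F and 0.63 ± 0.21 against BR-S (adjusted p = 0.286 and 0.143), beside neighbours at 0.31 and 0.44.

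*RPN13* was lower in the couples with BR-S on day 7. It measured -1.80, -0.57 and -1.01 in BR-RF/BR-S (-1.10 ± 0.18, adjusted p = 0.00334) and -0.82, -0.63 and -0.99 in BR-F/BR-S (-0.86 ± 0.18, adjusted p = 0.0131). All 6 arrays were below 0, the highest at -0.57. Without array 3 the adjusted p was 0.0518 in the first couple and 0.223 in the second. Against BR-F, BR-RF gave -1.27, -0.12 and -0.28 on day 7 (-0.49 ± 0.18, adjusted p = 0.0971), where array 1 alone was far below 0. On day 4 *RPN13* measured -0.54 ± 0.18 against BR-F and -0.64 ± 0.18 against BR-S (adjusted p = 0.126 and 0.0734), next to genes of chromosome XII with medians of -0.46 and -0.59, and in BR-F/BR-S 0.00 ± 0.18. On day 7 the neighbours were nearer 0, at -0.08 in BR-RF/BR-F, -0.30 in BR-RF/BR-S and -0.17 in BR-F/BR-S.

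*RPN1* and *RPN2* are the large scaffold subunits of the base. *RPN2* measured 0.45 ± 0.21 in BR-RF/BR-F on day 7 (adjusted p = 0.188), at the level of its neighbours on chromosome IX (median 0.45). It was the dimmest subunit gene on the array. *RPN1*, the docking site of ubiquitin shuttles, lay between -0.37 and 0.18 with no call. Its 12 ratios ran against the mean of the 32 subunit genes (r = -0.59).

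In the lid, which frames the deubiquitinase Rpn11, 2 of 8 genes were called lower in BR-RF/BR-S on day 7 (8.61% of all genes). In BR-F/BR-S on day 7 it was 1 of 8 (5.1% of all genes), and no lid gene was called in the other comparisons. *RPN5*, a scaffold gene of the lid, measured -0.82, -0.77 and -1.16 in BR-RF/BR-S on day 7 (-0.97 ± 0.27, adjusted p = 0.0363). *RPN8*, the partner of *RPN11*, measured -0.91, -0.69 and -0.82 there (-0.81 ± 0.20, adjusted p = 0.0210). Both were below 0 on every array, the highest at -0.69, while their neighbours had medians of 0.01 and 0.09. The *RPN5* call was lost without array 1 (adjusted p = 0.0532) or array 3 (adjusted p = 0.348), and that of *RPN8* without array 3 (adjusted p = 0.199). *RPN11* itself measured -0.37 ± 0.15 (adjusted p = 0.120). Against BR-F on day 7 *RPN5* and *RPN8* measured 0.23 ± 0.27 and -0.05 ± 0.20 in BR-RF.

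*RPN12* fell in BR-F/BR-S on day 7, with -0.73, -0.04 and -0.76 on the arrays (-0.57 ± 0.16, adjusted p = 0.0445). Array 2 was near 0, and this was the least stable of the 19 calls: the adjusted p was 0.0767 with median centring, 0.163 with loess per print tip, 0.200 without array 1 and 0.500 without array 3. All 8 lid genes were below 0 in that comparison, at -0.14 to -0.57, as were 29 of all 32 subunit genes. On all 3 arrays, 17 of the 32 were below 0 (53.1%, against 29.5% of all genes) and 0 were above 0 (28.7% of all genes). The highest subunit gene was *RPN1*, at 0.13 ± 0.21. *RPN3*, *RPN6*, *RPN7* and *RPN9*, the remaining lid genes, had no call in any couple. Of these *RPN9* was highest, with 0.85, 0.15 and 0.51 in BR-RF/BR-S on day 4 (0.50 ± 0.16, adjusted p = 0.121).

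The age of the colony was compared within each couple by the ratio on day 7 minus that on day 4. By limma 0 of 34 genes were called in any couple, where 0.523% of all genes were called in BR-RF/BR-F, 0.352% in BR-RF/BR-S and 0.311% in BR-F/BR-S. At an unadjusted p under 0.05 there were 4 genes in BR-RF/BR-F. Of these *PUP1*, *PRE3* and *PRE4* had higher ratios on day 7 and *RPN4* a lower one. At that threshold there were 7 in BR-RF/BR-S, all with lower ratios on day 7, and 2 in BR-F/BR-S, both lower. The share of all genes at that threshold is not given here, so these counts cannot be set against it. For *RPN4* the ratio on day 7 minus that on day 4 was -0.78 ± 0.29 in BR-RF/BR-F (adjusted p = 0.383) and -0.67 ± 0.29 in BR-RF/BR-S (adjusted p = 0.302). The lowest values in BR-RF/BR-S were -1.003 ± 0.456 for *RPT2* (adjusted p = 0.323) and -0.93 ± 0.28 for *RPN8* (adjusted p = 0.159). *PRE10* had opposite signs there on every array, with -0.46, -0.07 and -0.28 on day 7 against 0.33, 0.40 and 0.38 on day 4 (difference -0.64 ± 0.22, adjusted p = 0.219). Array 3 carried opposite dyes on these days, so a call on one day and none on the other is not a tested difference.

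Genes that assemble, bind or feed the proteasome were taken from lists of 57 genes by function. In BR-RF/BR-F, 3 of 50 measured were called on day 7, 1 higher and 2 lower (15.2% of all genes were called), and 1 of 47 on day 4, lower (5.89% of all genes). Against BR-S, 5 of 49 were called in BR-RF on day 7, 2 higher and 3 lower (15.9% of all genes), and 0 of 43 on day 4 (4.79%). In BR-F/BR-S, 5 of 47 were called on day 7, 4 higher and 1 lower (11.2% of all genes), and 0 of 39 on day 4 (4.69%). The share called among these lists was thus below that of all genes in 5 comparisons and near it in BR-F/BR-S on day 7. The median over all lists lay between -0.12 and 0.00 by couple and day, beside -0.01 to 0.00 over all genes. *RPN14*, whose product helps to place Rpt6 in the base, lay between 0.05 and 0.16 in all 6 comparisons.

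Among the assembly chaperones the calls went opposite ways. *NAS2*, a chaperone of the base, rose in BR-RF/BR-S on day 7, with 1.17, 0.97 and 0.76 (0.91 ± 0.20, adjusted p = 0.0133), and in BR-F/BR-S, with 0.62, 1.12 and 0.66 (0.77 ± 0.20, adjusted p = 0.0339). *UMP1*, which matures the core particle, fell in both, with -1.48, -0.33 and -0.49 in BR-RF/BR-S (-0.70 ± 0.20, adjusted p = 0.0359) and -1.20, -0.39 and -0.71 in BR-F/BR-S (-0.75 ± 0.20, adjusted p = 0.0339). Each gene kept 1 direction on all 6 arrays of day 7 that set BR-RF or BR-F against BR-S. On the 6 such arrays of day 4 both genes had values of either sign, *NAS2* between -0.38 and 0.62 and *UMP1* between -0.81 and 0.32.

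Of the proteins that bind the finished proteasome, *SPG5*, a regulator of stationary phase, fell in BR-RF/BR-F on day 7 (-0.92 ± 0.21, adjusted p = 0.0126) and on day 4 (-0.86 ± 0.21, adjusted p = 0.0362), although array 1 was near 0 on both days. In BR-RF/BR-S on day 7 *BLM10*, an activator that caps the core particle in place of the regulatory particle, rose (0.70 ± 0.17, adjusted p = 0.0218) with array 2 at -0.03, and *CIC1*, a core particle adaptor, fell (-0.96 ± 0.27, adjusted p = 0.0382). *SHP1*, a cofactor of the Cdc48 unfoldase, fell there on every array, with -1.35, -0.80 and -1.35 (-1.21 ± 0.22, adjusted p = 0.00558).

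Of the ubiquitin genes, *DOA4*, a deubiquitinase that recovers ubiquitin, measured -1.51, -1.25 and -0.83 in BR-RF/BR-F on day 7 (-1.11 ± 0.19, adjusted p = 0.00336) and 1.02, 0.59 and 0.68 in BR-F/BR-S (0.74 ± 0.19, adjusted p = 0.0326). It was thus higher in BR-F than in BR-RF and than in BR-S on all 6 of these arrays. *DSK2*, a shuttle that carries ubiquitinated proteins to the proteasome, rose in BR-F/BR-S on day 7 (1.04 ± 0.22, adjusted p = 0.0124), as did *HSF1*, the heat shock factor that activates *RPN4* (0.58 ± 0.16, adjusted p = 0.0391). *SSM4*, a ubiquitin ligase of the endoplasmic reticulum, rose in BR-RF/BR-F on day 7 (0.89 ± 0.18, adjusted p = 0.0114) with values on arrays 2 and 3 only, and lies on chromosome IX.

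The genes of the core particle were brighter on the arrays than those of the regulatory particle. By mean log2 intensity the core particle genes stood at percentiles 74.5 to 94.2 of all named genes (median 91.1) and the regulatory particle genes at 29.6 to 97.5 (median 77.4). When only the 12 regulatory particle genes at least as bright as the dimmest core particle gene were kept, the gap between the particles on day 7 was 0.45 in BR-RF/BR-S, 0.26 in BR-RF/BR-F and 0.14 in BR-F/BR-S. Over all regulatory particle genes it was 0.42, 0.26 and 0.21 in the same order. The genes kept were not matched in brightness to the core particle genes, and the part of brightness in the gap was not tested. The brightest subunit genes were *RPN5*, *RPN1* and *PRE6*, at percentiles 97.5, 95.2 and 94.2. They measured -0.97, -0.03 and 1.17 in BR-RF/BR-S on day 7.

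**Figure D4:**
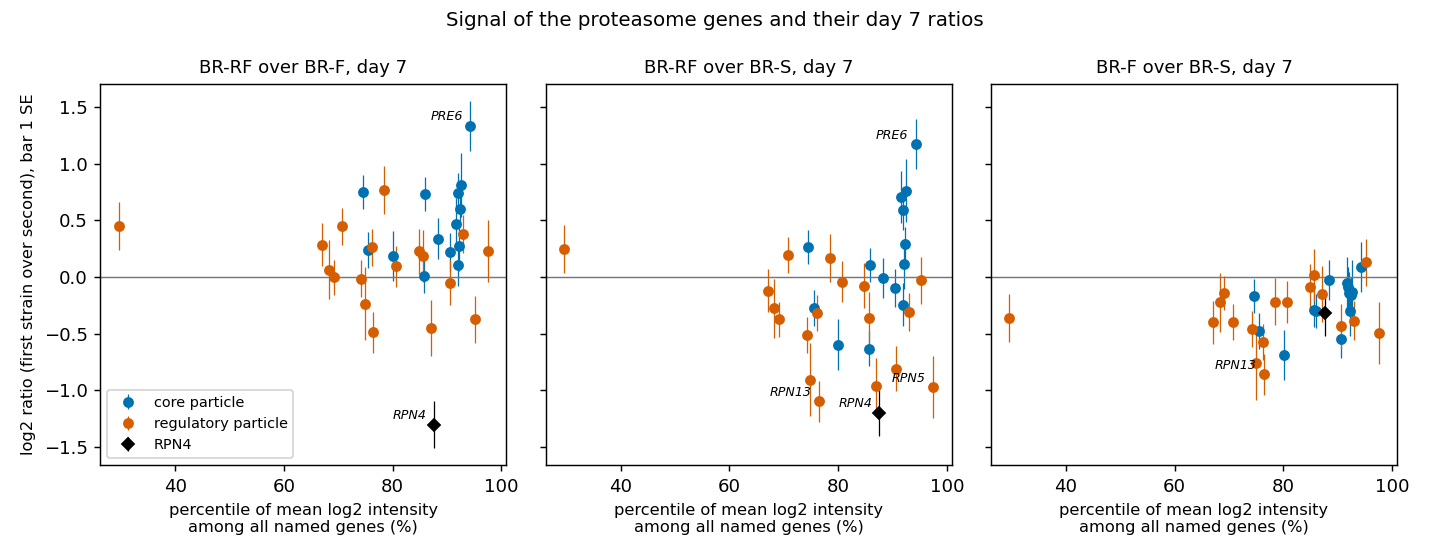
Log2 ratio on day 7 (bar 1 SE) of the core particle genes, regulatory particle genes and *RPN4* in the 3 couples, against the percentile of each gene's mean log2 intensity among all named genes. The core particle genes lay at percentiles 74.5 to 94.2. In BR-RF/BR-S 8 of the 14 core particle genes lay above 0 and 6 below it. Of the 18 regulatory particle genes, at any percentile, 3 lay above 0 and 15 below it.

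Likeness to the proteasome as a whole was described by the correlation of each gene's 12 ratios of biological replicates with the mean of the 32 subunit genes. Among the subunits, which are part of that mean, *RPN12* was closest (r = 0.97), followed by *PRE10* (r = 0.85), *RPN7* (r = 0.85) and *RPN2* (r = 0.82). *RPN4* was at r = -0.20. Of 3800 genes measured in all 12 ratios, the 10 outside the members with the highest values were *MRPL22* (r = 0.96), *DFG16*, *GUA1*, *ROG1*, *BOS1*, *PRT1*, *ADE2*, *DIA2*, *GRE3* and *GUP1* (r = 0.91). The 12 ratios share strains, arrays and normalization, and the values describe these arrays only.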

How the data were processed

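Polyadenylated RNA of colonies was measured on 18 two-colour arrays with 13056 spots each. The deposited intensity values were the median Cy3 and Cy5 signals that the authors obtained with TIGR Spotfinder 3.2.1, per the file headers with the local background already subtracted. A deposited value table of log2 ratios, which the authors had normalised by LOWESS in TIGR MIDAS, served as an alternative. Spot positions in the array files gave each spot its row of the probe annotation, and no genome build was named for them. Gene names came from that annotation, and R64 of RefSeq gave only the order of genes on chromosomes.

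Spots marked poor or with a signal of 0 or less were dropped. Loess (span 0.3, with the 1910 unnamed spots at no weight) normalised each array, spots of a gene were averaged, and ratios were turned to 1 direction per couple. Arrays 1 and 2 share RNA by the deposited record and were averaged, while the paper's text counts 3 biological replicates. lmFit and eBayes of limma 3.58.1 (R 4.3.3) were run on the 12 ratios, with 6 group means and 6 residual degrees of freedom (prior SD 0.268), two-sided, with Benjamini-Hochberg adjustment per couple and day over genes that both biological replicates measured. All couples share 1 estimate of the spread. Nothing states whether the biological replicates were separate cultures, so p-values measure only the spread between these samples. Precision is limited by the number of arrays. The fit was tested on simulated data. Neighbours of a gene were the 10 nearest measured genes on each side.

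The named genes were every member, the genes of the function lists called in at least 1 couple and day, and the 10 most correlated others. The members and lists were chosen with earlier results of these data known. Alternatives in normalization, spot filters, replicates and thresholds were computed. The brightness and chromosome-arm alternatives were added after the data were seen. Protein and promoter sequences were not used here.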

Additional observations from a re-analysis of the deposited data

How the results depend on the processing

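Each call rests on 2 biological replicates, and array 3 alone forms 1 of them, so leaving it out ended 15 of the 19 calls. *RPN4* on day 7 in both couples with BR-RF and *PRE6* in BR-RF/BR-F (day 7) and BR-RF/BR-S (day 4) kept theirs. None of the 19 changed direction under any alternative run. Leaving out an array gave, on day 7 and on day 4, 2 to 9 and 0 to 1 calls in BR-RF/BR-F, 1 to 13 and 1 to 2 in BR-RF/BR-S, and 0 to 3 and 0 in BR-F/BR-S, with 0 in each comparison of days. The gap between core and regulatory particle then ranged from 0.18 to 0.40 on day 7 and from -0.01 to 0.18 on day 4 in BR-RF/BR-F, 0.41 to 0.51 and -0.11 to 0.13 in BR-RF/BR-S, and 0.092 to 0.18 and -0.14 to 0.0099 in BR-F/BR-S.

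In BR-RF/BR-F on day 7 the count of 7 became 12 with all arrays and a dye term and 13 with 1 level per strain and day, and on day 4 the 1 became 2 with loess per print tip, 2 with the dye term, 4 with strain levels and 0 without *PRE6*, *RPN2* and *RPN13*. In BR-RF/BR-S on day 7 the 8 became 14 with print tips, 14 with the dye term and 15 with strain levels, and on day 4 the 1 became 3 with print tips, 2 with 3 arrays as replicates, 4 with the dye term, 4 with strain levels, 3 at 1.5-fold and unadjusted p, 3 by the methods' test and 0 without those genes. In BR-F/BR-S on day 7 the 2 became 1 with median centring, 6 with 3 arrays, 11 with the dye term, 14 with strain levels and 1 without those genes, and on day 4 the 0 became 1 with strain levels and 1 at 1.5-fold and unadjusted p. The methods' test after adjustment gave 0 in all 6. The 0 calls between days became 2 with the dye term and 3 at 1.5-fold and unadjusted p in BR-RF/BR-F, 2 with strain levels and 5 at 1.5-fold in BR-RF/BR-S, and 1 at 1.5-fold in BR-F/BR-S. The gap of 0.21 in BR-F/BR-S on day 7 was 0.094 with print tips, 0.15 without the dimmest spots, 0.17 with 3 arrays and by the methods' test, 0.12 with strain levels, 0.14 without the 3 genes and 0.14 among bright genes. In BR-RF/BR-F the gap of 0.26 on day 7 was 0.44 with the dye term and 0.42 with strain levels. The small gaps of day 4 moved by over 1.5 times under several alternatives, between 0.089 and 0.30 in BR-RF/BR-F, 0.0044 and 0.22 in BR-RF/BR-S, and -0.11 and 0.00091 in BR-F/BR-S. The gap of 0.42 in BR-RF/BR-S on day 7 did not move by that much under any alternative run. The cause of these changes was not tested.

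With the replicate number as a block, the 2 calls in BR-F/BR-S on day 7 became 1 and the block ended 2 of the 19 calls, *RPN12* there (adjusted p = 0.0585) and *PRE3* in BR-RF/BR-S on day 7 (adjusted p = 0.0661). Replicate differences correlated at -0.54 to 0.32 between groups, and 3 of 15 pairs of groups were above 0.1. These values cannot decide whether the numbers pair the samples. A shared strain can give either sign by its place in the ratio, and array 3 had a single dye orientation. Adding *SEM1* was not run, since the probe annotation used here holds no gene of that name. The search for the Rpn4 motif in promoters was not run, since no promoter sequences were at hand.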
